A study of Mus musculus with 8 samples.

Results

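The primary (azurophil) granule genes examined here were 8 of the 19938 genes measured in sorted mouse hematopoietic stem cells. They encode myeloperoxidase (Mpo), the serine proteases neutrophil elastase (Elane), proteinase 3 (Prtn3) and cathepsin G (Ctsg), the intracellular inhibitors Serpinb1a and Serpinb6a, the activating protease cathepsin C (Ctsc) and the granule proteoglycan serglycin (Srgn). The members were taken by gene symbol from the array annotation, and all 8 of 8 names were found. Each had 1 probe set of its own and 0 probe sets shared with another gene, so no choice between probe sets was needed.

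Mice received G-CSF, the cytokine that drives granulocyte production, under the skin at 125 mcg per kg 2 times a day, or PBS, and cells were taken at 36 h. The sorted bone marrow cells, called KSL SLAM cells, carried c-Kit, Sca-1 and CD150 and lacked CD48, CD41 and markers of mature lineages. The 4 G-CSF and 4 PBS samples were independent and each joined cells of 5 to 10 mice, so a value is the level of a pool and not of 1 animal. Amplified RNA was hybridized to MoGene 1.0 ST arrays, and the labels used here give no strain, sex or age of the mice. Values are log2 of the deposited linear intensities. A log2 fold change is the G-CSF mean minus the PBS mean, ± is an SD with n = 4 or a standard error where SE is written, and a gene passed at a limma p under 0.05 after Benjamini-Hochberg adjustment over all 19938 genes.

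Primary granules form at the promyelocyte stage of granulocyte development, and their proteins are made and stored long before the cell is a mature neutrophil. Elastase, proteinase 3 and cathepsin G are made as inactive precursors, which cathepsin C activates by removing a dipeptide. The sulfated chains of serglycin take part in the packing of granule proteins. Myeloperoxidase is a heme enzyme that makes hypochlorous acid from hydrogen peroxide and chloride. Serpinb1a lies in the cytosol and inactivates the serine proteases when they leak from granules, and mice that lack it lose neutrophils in the marrow to their own proteases. Low transcript levels of these genes are also known in multipotent progenitors that have not yet entered the granulocyte lineage. On the arrays used here the 8 genes were not dim. Their mean log2 intensity over all 8 arrays lay from percentile 76.7 (Elane) to 99.6 (Srgn) of all genes, although probe levels of different genes are not on 1 scale.

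The upstream windows of the 4 enzyme genes are shown because Mpo, Elane and Ctsg had a common order of high and low arrays, described below, which Prtn3, the neighbour of Elane, did not share. The windows are the 250 bases before the annotated start, from RefSeq (GRCm38.p6), 5′ to 3′ on the strand of the gene. Capitals mark the letters GAGGAA (core of PU.1 sites), AACGG (core of MYB sites), TGTGGT (core of RUNX sites) and TTNNGNAA (a form of C/EBP sites), each searched on both strands and chosen with the sequences in view. No 2 marked stretches overlap in the windows printed.
Elane, chr10:79886062-79886311, plus strand: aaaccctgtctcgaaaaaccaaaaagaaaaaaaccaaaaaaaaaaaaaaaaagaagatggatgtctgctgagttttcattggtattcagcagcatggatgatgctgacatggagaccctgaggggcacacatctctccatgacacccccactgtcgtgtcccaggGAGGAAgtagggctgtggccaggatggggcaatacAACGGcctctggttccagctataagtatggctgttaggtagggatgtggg
Prtn3, chr10:79879417-79879666, plus strand: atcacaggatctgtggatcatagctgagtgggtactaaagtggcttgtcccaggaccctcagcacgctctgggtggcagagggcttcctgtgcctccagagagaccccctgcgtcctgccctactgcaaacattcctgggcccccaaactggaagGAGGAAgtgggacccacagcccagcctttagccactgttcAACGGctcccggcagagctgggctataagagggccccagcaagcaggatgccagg
Mpo, chr11:87793534-87793783, plus strand: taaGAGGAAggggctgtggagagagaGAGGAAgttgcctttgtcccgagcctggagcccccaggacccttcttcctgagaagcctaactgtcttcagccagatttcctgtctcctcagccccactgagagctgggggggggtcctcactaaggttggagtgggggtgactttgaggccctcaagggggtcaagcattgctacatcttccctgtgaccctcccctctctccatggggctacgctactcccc
Ctsg, chr14:56102575-56102824, minus strand: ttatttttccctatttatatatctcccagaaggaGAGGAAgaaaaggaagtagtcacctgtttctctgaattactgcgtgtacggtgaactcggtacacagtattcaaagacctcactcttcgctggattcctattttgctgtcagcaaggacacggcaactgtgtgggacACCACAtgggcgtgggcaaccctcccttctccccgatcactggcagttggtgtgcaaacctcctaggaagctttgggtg

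GAGGAA was found in all 4 enzyme windows. Since the letters were chosen with these sequences in view, the counts show no excess. The shares of 32851 windows of all genes are given for scale only (23.3% for these letters). AACGG was found in Elane and Prtn3, at positions -50 and -55 from the start by its first base (14.5% of all windows). TGTGGT was found in Ctsg alone of these 4, read on the other strand as ACCACA (14.0% of all windows), and TTNNGNAA in 0 of the 4 (36.8% of all windows). The GAGGAA stretch began at -85 in Elane and -95 in Prtn3, whereas it began at -247 and -224 in Mpo and at -216 in Ctsg. These matches describe letters and not bound sites.

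All 8 genes had a log2 fold change above 0, against 41.7% of all genes, and their median was 1.29, against -0.066 over all genes. Serpinb6a (0.039) and Srgn (0.053) were near 0. Without PBS replicate 3, Serpinb6a was below 0 (-0.51), and 46.9% of all genes were above 0. The 8 genes were chosen with earlier results of these data known. Serpinb1a was the 1 gene of the 8 that passed, where 0.0953% of all genes passed as higher and 0.0% as lower. At an unadjusted p under 0.05, 5 of the 8 were higher and 0 lower, against 6.07% and 2.94% of all genes. All 8 were brighter than the median gene. In a fit of the 9969 brighter genes alone, 971 were higher and 130 lower at that p (limma). Over all 19938 genes, 1211 were higher and 586 lower. Brighter genes thus leaned upward more, and shares of all genes are not matched to the brightness of the 8 genes or of the lists below. The G-CSF values lay above all PBS values for Prtn3 and Serpinb1a, thus for 2 of 8, against 3.37% of all genes (2.78% lay below, and 6.15% were apart in either direction). The other 6 overlapped.

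**Figure D1:**
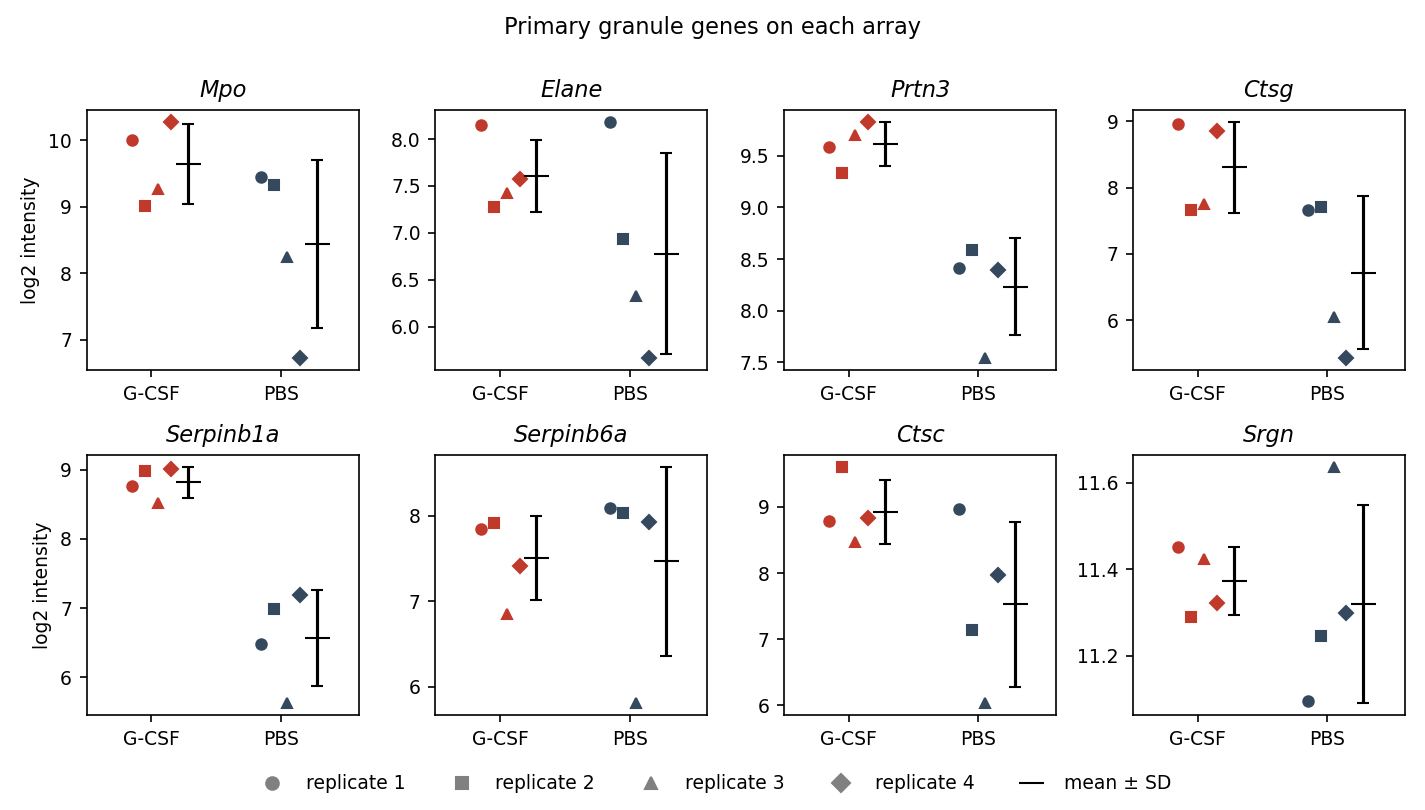
Log2 intensity (vertical axes, a separate scale for each gene) of the 8 primary granule genes on each array, G-CSF left and PBS right, with symbols for replicates 1 to 4 and the mean ± SD (n = 4) beside them. The groups are apart for Prtn3 and Serpinb1a, and PBS replicate 3 (triangle) or 4 (diamond) is the lowest array for every gene but Srgn.

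A single array stood apart from the rest. The interquartile range of PBS replicate 3 was 1.68 on the log2 scale, against 2.42 to 2.80 on the other 7, and its correlation with them over all genes was at most 0.903. It held the lowest PBS value of 4 members (Prtn3, Serpinb1a, Serpinb6a and Ctsc) and the highest of Srgn. PBS replicate 4 held the lowest value of Mpo, Elane and Ctsg. Log2 fold changes and list medians that leaving out PBS replicate 3 moved by over 1.5 times are given without it as well. For Cpa3 and Timp1 the values of the arrays are given instead. In pooled cells, fewer cells of a kind and less RNA per cell cannot be told apart.

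The sort markers were measured in part. Kit, the c-Kit receptor, had 10.24 to 10.49 on the G-CSF arrays and 10.45 to 10.94 on the PBS arrays. Slamf1, which encodes CD150, had 6.05 to 7.16 after G-CSF and 5.94 to 7.24 after PBS. Cd48 had 7.24 to 8.95 after G-CSF and 6.66 to 7.57 after PBS, and Itga2b, which encodes CD41, 7.18 to 7.74 after G-CSF and 7.06 to 7.72 after PBS. Of these 4, 0 passed, and 0 were under an unadjusted p of 0.05 (limma). With no detection calls, the files do not say whether such a level is above background. Ly6a, the gene of Sca-1, was not analysed here. The 14 stem cell markers measured averaged 8.14 to 8.32 on the G-CSF arrays and 7.81 to 8.45 on the PBS arrays, with a median log2 fold change of -0.034 (-0.095 without PBS replicate 3), 0 past the threshold and 1 higher at an unadjusted p under 0.05 (limma). That 1 was Esam, an adhesion molecule of stem cells, at 0.89 ± 0.20 SE (limma adjusted p = 0.206).

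Serpinb1a, the inhibitor of elastase, proteinase 3 and cathepsin G, rose 4.75-fold. In G-CSF replicates 1 to 4 its log2 intensity read 8.77, 8.97, 8.52 and 9.01, against 6.48, 6.99, 5.63 and 7.18 in PBS replicates 1 to 4. The lowest G-CSF array was 1.34 above the highest PBS array. The means were 8.82 ± 0.23 after G-CSF and 6.57 ± 0.70 after PBS (SD, n = 4 each), and the log2 fold change was 2.25 ± 0.31 SE (95% interval 1.58 to 2.92, limma adjusted p = 0.0199). The spread after G-CSF was the smaller, and all 4 G-CSF arrays were within 0.49 of each other. Without PBS replicate 3, its lowest array, the log2 fold change was 1.93 ± 0.20 SE (limma adjusted p = 0.0116). The call was lost, at almost the same log2 fold change, without G-CSF replicate 1 (2.26, limma adjusted p = 0.0985), without G-CSF replicate 2 (2.20, limma adjusted p = 0.0957) and without G-CSF replicate 4 (2.18, limma adjusted p = 0.0998). It was also lost after renewed quantile normalization (2.26, limma adjusted p = 0.0599) and when all 35556 probe sets entered the fit (2.25, limma adjusted p = 0.129). It held in 13 of 18 alternatives, whose limma adjusted p ranged from 0.00349 to 0.129.

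Serpinb6a, a clade B serpin known from mouse and human to inhibit cathepsin G, did not pass. It had 7.84, 7.91, 6.85 and 7.41 in G-CSF replicates 1 to 4, against 8.09, 8.03, 5.81 and 7.93 in PBS replicates 1 to 4. Apart from PBS replicate 3, every PBS array was above every G-CSF array. Its log2 fold change came to 0.039 ± 0.47 SE (95% interval -0.99 to 1.07, limma adjusted p = 0.977), and to -0.51 ± 0.25 SE without PBS replicate 3 (limma adjusted p = 0.601, with 0.561 to 0.994 over 18 alternatives). Its sign also turned without G-CSF replicate 1 or 2, and its interval holds changes in either direction.

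Of the enzymes, Prtn3 had the smallest spread. Proteinase 3 was at 9.59, 9.33, 9.70 and 9.83 in G-CSF replicates 1 to 4, against 8.42, 8.58, 7.54 and 8.39 in PBS replicates 1 to 4. The groups were apart by 0.75. Its log2 fold change was 1.38 ± 0.24 SE (95% interval 0.86 to 1.90) and did not pass (limma adjusted p = 0.068), although the unadjusted p = 0.000119 (limma) was the 34th lowest among all genes. Without PBS replicate 3 it was 1.15 ± 0.15 SE (limma adjusted p = 0.0371), and it further passed with array weights (1.21, limma adjusted p = 0.0142) and when quantile normalization was combined with leaving out that array (1.10, limma adjusted p = 0.0482). Over 18 alternatives its limma adjusted p ranged from 0.0142 to 0.259, and it passed in 3.

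Ctsg had 8.95, 7.67, 7.75 and 8.85 in G-CSF replicates 1 to 4, against 7.67, 7.71, 6.05 and 5.43 in PBS replicates 1 to 4. Cathepsin G has a chymotrypsin-like specificity, unlike elastase and proteinase 3, which cut after small residues. The overlap of its groups was slight, since the lowest G-CSF array was 0.04 below the highest PBS array. On the log2 scale the fold change was 1.59 ± 0.52 SE (95% interval 0.46 to 2.73, limma adjusted p = 0.403), with 1.16 without PBS replicate 4.

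Mpo had 10.00, 9.02, 9.27 and 10.28 in G-CSF replicates 1 to 4, against 9.45, 9.33, 8.25 and 6.72 in PBS replicates 1 to 4. Myeloperoxidase thus overlapped, with PBS replicates 1 and 2 above G-CSF replicates 2 and 3. Its log2 fold change of 1.21 ± 0.54 SE (95% interval 0.029 to 2.38, limma adjusted p = 0.546) was 0.63 without PBS replicate 4 (limma adjusted p = 0.524, with 0.343 to 0.839 over 18 alternatives).

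Elane had 8.14, 7.27, 7.42 and 7.57 in G-CSF replicates 1 to 4, against 8.19, 6.94, 6.32 and 5.67 in PBS replicates 1 to 4. The highest of the 8 elastase values was PBS replicate 1. Its log2 fold change was 0.82 ± 0.44 SE (95% interval -0.15 to 1.80, limma adjusted p = 0.577), with 0.45 without PBS replicate 4 (limma adjusted p = 0.605) and 1.29 without PBS replicate 1 (limma adjusted p = 0.182). Over 18 alternatives its limma adjusted p ranged from 0.182 to 0.839.

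**Figure D2:**
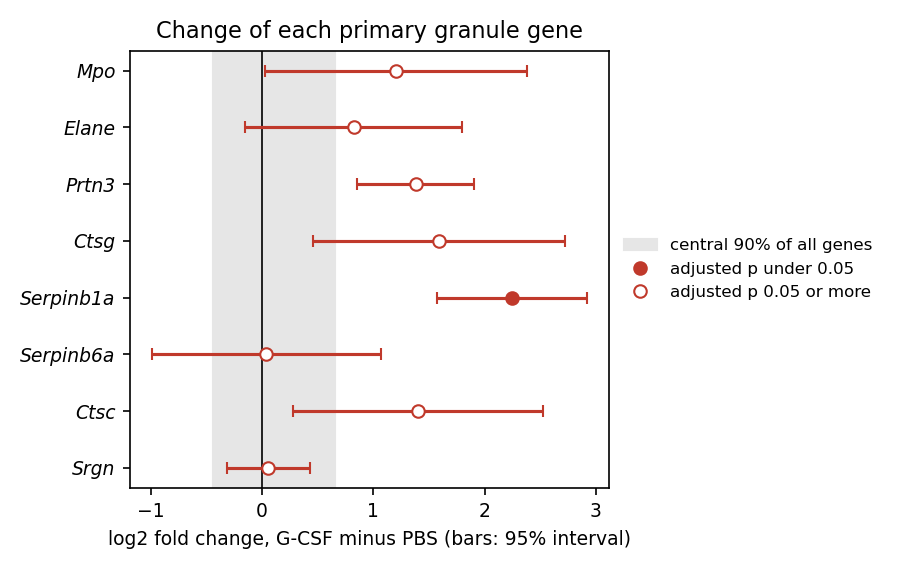
Log2 fold change (G-CSF minus PBS, horizontal axis) of each of the 8 genes with its 95% interval from limma, over a grey band that holds the central 90% of the fold changes of all genes (-0.44 to 0.66). Serpinb1a (filled, 2.25) passed the threshold, the other 7 (open) did not, and the points of Serpinb6a and Srgn lie near 0.

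Mpo, Elane and Ctsg shared their order of arrays. In the PBS group each was highest in replicate 1 or 2, lower in replicate 3 and lowest in replicate 4, and in the G-CSF group each was higher in replicates 1 and 4 than in 2 and 3. PBS replicate 4 was 1.72, 1.11 and 1.29 below the PBS mean for Mpo, Elane and Ctsg on the log2 scale, but 0.16 above it for Prtn3, the neighbour of Elane, and 0.61 above it for Serpinb1a. The SD among PBS arrays was 1.27 for Mpo, 1.07 for Elane and 1.15 for Ctsg, against 0.47 for Prtn3. The order is a description of 4 arrays in a group and carries no test.

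**Figure D3:**
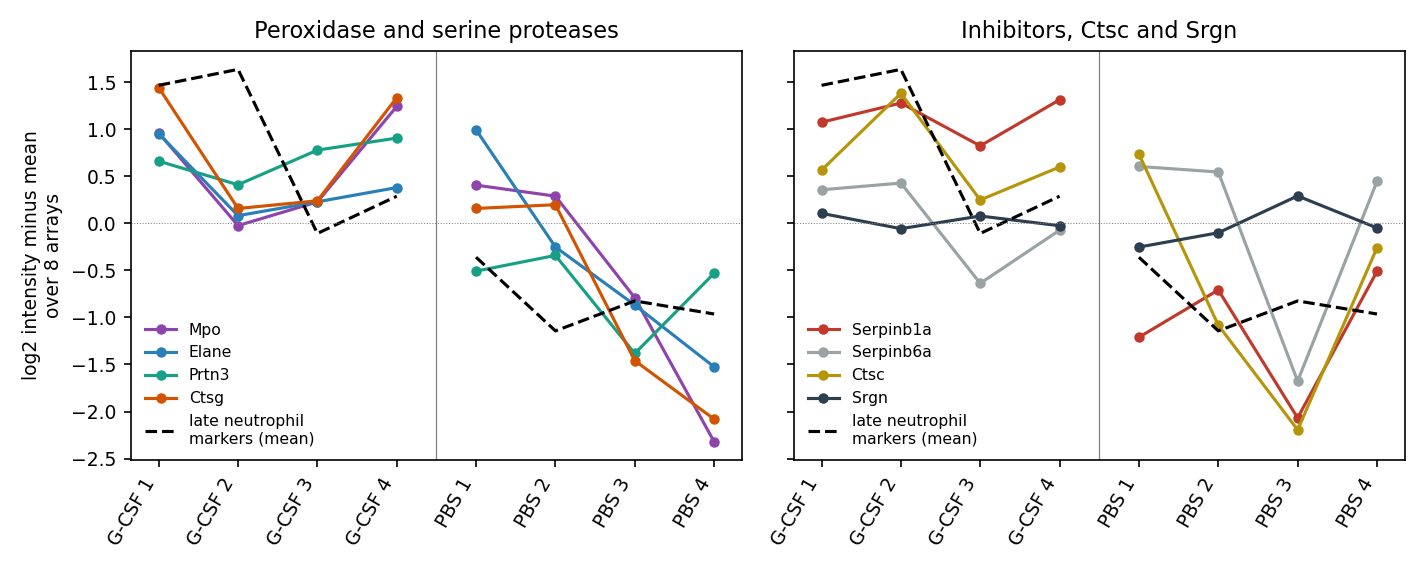
Log2 intensity of each gene on each array minus its mean over the 8 arrays (vertical axis), enzymes at left and the other 4 genes at right, with the mean of 24 late neutrophil markers dashed. Lines join the values of 1 gene within a group and imply no order of replicates. Mpo, Elane and Ctsg are each lowest on PBS replicate 4, and Prtn3 and Serpinb1a on PBS replicate 3.

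Ctsc, which activates the proteases, had 8.79, 9.61, 8.48 and 8.83 in G-CSF replicates 1 to 4, against 8.96, 7.14, 6.03 and 7.97 in PBS replicates 1 to 4. PBS replicate 1 was within the G-CSF range, and the other 3 PBS arrays lay below all of them. The log2 fold change of 1.40 ± 0.51 SE (95% interval 0.27 to 2.53, limma adjusted p = 0.47) was 0.90 without PBS replicate 3 (limma adjusted p = 0.574, with 0.15 to 0.839 over 18 alternatives).

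Srgn varied least of the 8. Serglycin had 11.45, 11.29, 11.42 and 11.32 in G-CSF replicates 1 to 4, against 11.09, 11.25, 11.64 and 11.30 in PBS replicates 1 to 4. The PBS values lay on both sides of the G-CSF values. Its log2 fold change was 0.053 ± 0.17 SE (95% interval -0.32 to 0.43, limma adjusted p = 0.899), so a fold change as large as that of Serpinb1a or Prtn3 lies outside its interval. Its sign turned after quantile normalization (-0.13) and without PBS replicate 1 (-0.022), and it was 0.16 without PBS replicate 3.

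The level of Serpinb1a relative to each protease was followed as the difference of their log2 values on the same array, set to a mean of 0 over the PBS arrays and not tested. Relative to Prtn3, Serpinb1a stood at 0.85, 1.30, 0.48 and 0.84 in G-CSF replicates 1 to 4, against -0.27, 0.067, -0.25 and 0.45 in PBS replicates 1 to 4. The groups were apart by a narrow margin, with a mean difference of 0.87 and an SD of 0.34 in each group. Relative to Elane the mean difference was 1.42, with an SD of 0.46 after G-CSF and 1.36 after PBS. Relative to Ctsg it was 0.66, with an SD of 0.66 after G-CSF and 1.30 after PBS. In both cases the groups overlapped, and PBS replicate 4 was the highest PBS array. For Serpinb6a the same differences were negative, at -0.78 to Elane, -1.34 to Prtn3 and -1.55 to Ctsg, and the groups overlapped in each.

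**Figure D4:**
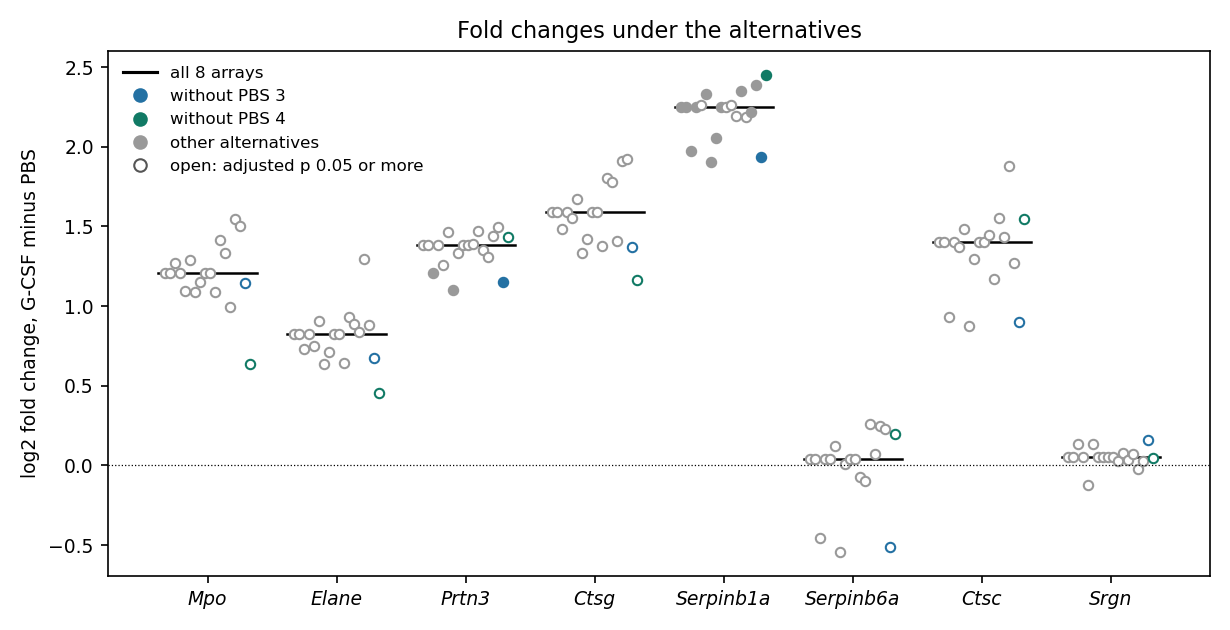
Log2 fold change (vertical axis) of each gene with all arrays (bar) and under 18 alternative settings (points, filled where the adjusted p was under 0.05), with the settings without PBS replicate 3 in blue and without PBS replicate 4 in green. Serpinb1a stayed between 1.90 and 2.45, Mpo and Elane were lowest without PBS replicate 4, and Serpinb6a lay on both sides of 0.

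By the root mean square difference of profiles over the 8 arrays, each gene centred on its own mean, the nearest of 9404 named genes brighter than the median gene to Serpinb1a were Csf2rb, Il4ra and Il10ra (0.40, 0.42 and 0.44, where the median gene was at 1.15). All are cytokine receptor chains, and Csf2rb, the beta chain shared by the GM-CSF, IL-3 and IL-5 receptors, passed as well (log2 fold change 1.59 ± 0.21 SE, limma adjusted p = 0.0199), as did Il10ra (1.94 ± 0.26 SE, limma adjusted p = 0.0199) but not Il4ra (1.68 ± 0.36 SE, limma adjusted p = 0.188). The search took profiles close to that of Serpinb1a, its group difference included, so calls like its own are no separate result. The calls of Csf2rb and Il10ra held in 14 and 13 of 18 alternatives, with limma adjusted p from 0.00342 to 0.122 and from 0.0104 to 0.122. That of Csf2rb was lost without G-CSF replicate 1, 2 or 4 (limma adjusted p = 0.0947, 0.0957 and 0.0941), and that of Il10ra without G-CSF replicate 2 or 4 or PBS replicate 2 (limma adjusted p = 0.0911, 0.0746 and 0.0509). The nearest to Mpo were Ctsg at 0.33, the granule membrane gene Nkg7 at 0.45 and Elane at 0.50 (median gene 1.06), so 2 of its 3 nearest genes were other primary granule genes. Nkg7 had 8.72, 8.96, 9.16 and 9.11 in G-CSF replicates 1 to 4, against 9.24, 8.66, 7.39 and 6.36 in PBS replicates 1 to 4. It thus had the same order as Mpo on the PBS arrays but not on the G-CSF arrays. The nearest to Srgn were Cdx1, Tctn2 and Tmod1, at 0.056 to 0.069 (median gene 0.39), which had nearly flat profiles.

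Other primary granule and lysosomal proteins mostly had log2 fold changes above 0, and none of them passed. Of 30 named, 27 were measured, 25 had a log2 fold change above 0 (41.7% of all genes did) and 0 passed. At an unadjusted p under 0.05, 10 were higher (6.07% of all genes). Only 3 of the 27 were dimmer than the median gene, and brighter genes leaned upward more than all genes did. In 4 the G-CSF values lay above all PBS values (3.37% of all genes). The median was 0.61, or 0.35 without PBS replicate 3. Prss57, the granule protease known as neutrophil serine protease 4, had 6.44, 6.12, 6.31 and 7.07 in G-CSF replicates 1 to 4, against 5.48, 5.39, 5.88 and 5.67 in PBS replicates 1 to 4. Its groups did not overlap (log2 fold change 0.88 ± 0.22 SE, limma adjusted p = 0.276). The groups were also apart for the lysosomal membrane gene Lamp2 (0.63 ± 0.16 SE) and for cathepsin A, Ctsa (0.53 ± 0.17 SE), whereas those of cathepsin H, Ctsh (0.86 ± 0.31 SE, or 0.52 without PBS replicate 3), overlapped. Ms4a3, a membrane protein of granulocyte-monocyte progenitors chosen here after its values were seen, had the highest fold change of this list (1.41 ± 0.60 SE, limma adjusted p = 0.534), and was at 5.03 and 3.98 in PBS replicates 3 and 4.

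The other clade B serpins are relatives of Serpinb1a with other targets. Of 25 named, 22 were measured, 4 had a log2 fold change above 0, against 41.7% of all genes, and 0 passed. Without PBS replicate 3 the count above 0 was 9 of 22, against 46.9% of all genes, so the share depended on that array. In the full set there were 0 higher and 1 lower at an unadjusted p under 0.05. The median was -0.21 (-0.041 without PBS replicate 3), and 21 of the 22 were dimmer than the median gene. Serpinb1b, a close relative of Serpinb1a in the mouse, had -0.23 ± 0.25 SE, -0.056 without PBS replicate 3, and 0.033 when quantile normalization was added to that. Serpinb6b, the 1 of the 22 brighter than the median gene, had 6.67 to 7.37 after G-CSF and 5.28 to 7.84 after PBS (0.59 ± 0.44 SE, or 1.09 without PBS replicate 4). Both were chosen after their values were seen. The lowest p was that of Serpinb9d, at -0.50 ± 0.16 SE (limma adjusted p = 0.387), and Serpinb2, an inhibitor of plasminogen activators, had -0.37 ± 0.21 SE (-0.18 without PBS replicate 3). Probes of such close relatives can share sequence, so their values are uncertain.

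Other protease inhibitors were divided. Of 29 named, 21 were measured, 11 had a log2 fold change above 0, against 41.7% of all genes, and 0 passed. Without PBS replicate 3, 12 of 21 were above 0, against 46.9% of all genes. The median was 0.048 (0.086 without PBS replicate 3, and -0.041 to 0.13 over all single arrays left out). At an unadjusted p under 0.05, 6 were higher and 2 lower, against 6.07% and 2.94% of all genes. Stfa2, a cysteine protease inhibitor of granulocytes, had the largest value of this list (4.56 ± 0.76 SE, limma adjusted p = 0.0639). Cystatin B, Cstb, had 0.92 ± 0.27 SE and cystatin C, Cst3, 0.70 ± 0.22 SE, and both inhibit lysosomal cathepsins. Serpinc1, which encodes antithrombin, had -0.72 ± 0.19 SE. The groups of these 4 genes did not overlap. Over the 21 measured, the groups were apart upward for 3 and downward for 3, against 3.37% and 2.78% of all genes. The others apart downward were Serpina1d (-0.50) and Timp1 (-0.43). Much of the Timp1 value rests on PBS replicate 3, at 4.81, against 3.89 to 3.97 on the other PBS arrays and 3.53 to 3.84 after G-CSF.

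Granule serine proteases of mast, T and NK cells, which cathepsin C also activates, include several that lie beside Ctsg. Their list also held the mast cell carboxypeptidase Cpa3, which is not a serine protease (-0.43 ± 0.65 SE). Cpa3 had 8.26 in PBS replicate 3, against 4.49 to 5.86 on the other PBS arrays and 4.81 to 6.35 after G-CSF. Its negative sign thus rests on that array. Of 17 named, 15 were measured, 1 had a log2 fold change above 0, against 41.7% of all genes, and 0 passed. Without PBS replicate 3 the count above 0 was 4 of 15, against 46.9% of all genes. With all arrays, 0 were higher and 1 lower at an unadjusted p under 0.05. The median was -0.23 (-0.077 without PBS replicate 3), and 14 of the 15 were dimmer than the median gene. Granzyme A, Gzma, had -0.76 ± 0.29 SE and Mcpt8, the neighbour of Ctsg, -0.44 ± 0.24 SE, or -0.22 without PBS replicate 3 (limma adjusted p with all arrays = 0.505 for Gzma and 0.578 for Mcpt8).

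Transcription factors of primary granule genes had a median log2 fold change of 0.19 (0.29 without PBS replicate 3 and 0.079 without G-CSF replicate 1). With all arrays 11 of 14 were above 0, against 41.7% of all genes, and without PBS replicate 3 9 of 14, against 46.9%. At an unadjusted p under 0.05, 3 were higher (6.07% of all genes), and 0 passed. Spi1, which encodes PU.1, had 9.15, 9.03, 8.74 and 8.87 in G-CSF replicates 1 to 4, against 7.81, 7.78, 9.02 and 8.02 in PBS replicates 1 to 4. Of the PBS arrays, replicate 3 alone was within the G-CSF range. Its log2 fold change was 0.79 ± 0.27 SE (limma adjusted p = 0.442), and 1.07 without PBS replicate 3 (limma adjusted p = 0.0371, with 0.0371 to 0.818 over 18 alternatives). Ets1 had 0.53 ± 0.17 SE with groups that did not overlap, and Cebpg 0.62 ± 0.25 SE. Factors chosen after their values were seen were Cebpa, a factor of granulocyte commitment, at 0.0034 ± 0.18 SE with a sign that turned under other scalings, Gfi1 at 0.15 ± 0.15 SE and Cebpe, of late granulocyte stages, at 0.30 ± 0.22 SE.

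Genes that serve granule assembly were also read from the same fit. Over all genes, 41.7% had a log2 fold change above 0, or 46.9% without PBS replicate 3. At an unadjusted p under 0.05, 6.07% of all genes were higher, and 3.37% had G-CSF values above all PBS values. Of 27 granule trafficking genes, 19 had a log2 fold change above 0 (16 without PBS replicate 3) and 0 passed. There were 6 higher at an unadjusted p under 0.05, and the median was 0.18 (0.038 without PBS replicate 3). Rab27a, a GTPase of granule secretion, had 8.33, 8.85, 8.94 and 8.78 in G-CSF replicates 1 to 4, against 7.49, 7.52, 7.27 and 8.11 in PBS replicates 1 to 4. Its groups were apart (1.13 ± 0.22 SE, limma adjusted p = 0.117), as were those of Lyst, the gene of Chediak-Higashi syndrome (0.58 ± 0.20 SE), and of Jagn1 (0.81 ± 0.27 SE, or 0.53 without PBS replicate 3), which is mutated in a congenital neutropenia. Chondroitin sulfate synthesis, which builds the chains of serglycin, had a median of 0.046 (-0.0045 to 0.17 with 1 array left out, and 0.0016 without PBS replicate 3). Of its 21 genes, 13 were above 0 (11 without PBS replicate 3), 0 passed and 2 were higher at an unadjusted p under 0.05. Chsy1, a chondroitin synthase, had 0.47 ± 0.18 SE. Heme synthesis and the chaperones of myeloperoxidase had a median of 0.34 with 10 of 12 above 0, 0 past the threshold and 3 higher at an unadjusted p under 0.05. Without PBS replicate 3 the median was 0.26 and 8 of 12 were above 0. Calreticulin, Calr, which helps to fold myeloperoxidase, had 0.61 ± 0.21 SE and Alas1, the first enzyme of heme synthesis, 0.72 ± 0.29 SE.

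**Figure D5:**
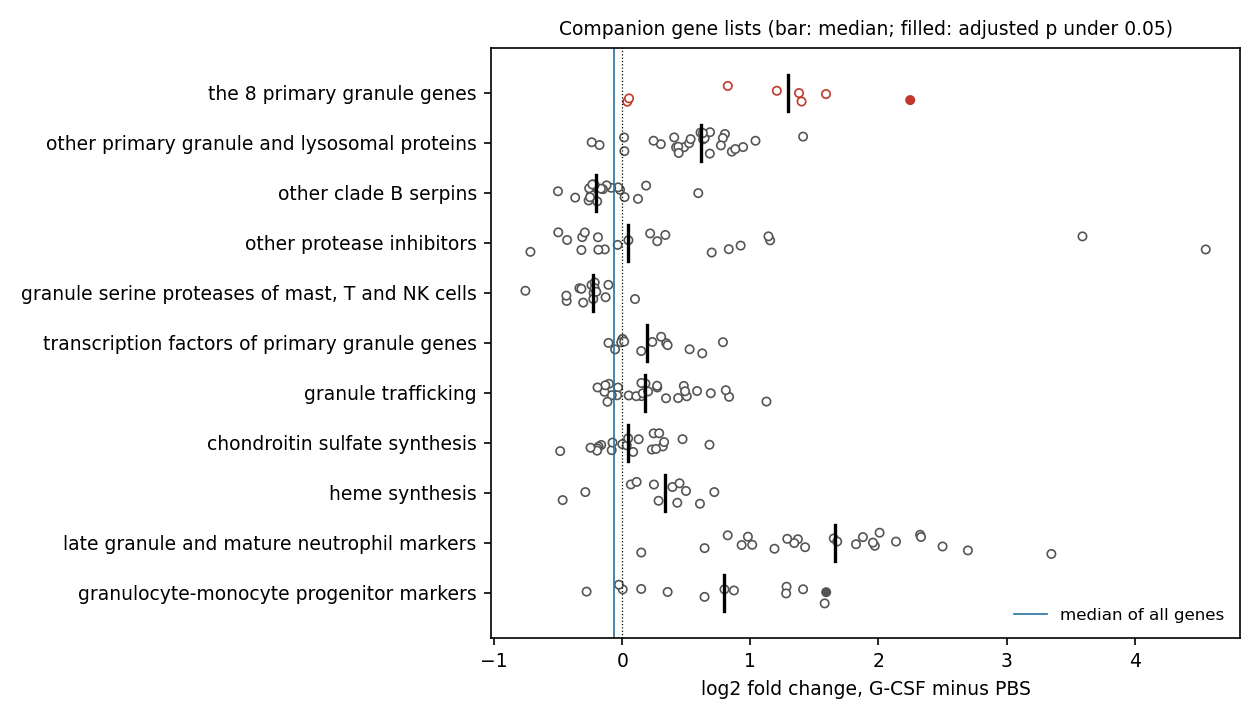
Log2 fold change (G-CSF minus PBS, horizontal axis) of every measured gene of the 8 primary granule genes and of 10 companion lists, 1 row per list, with the list's median as a bar, filled points at an adjusted p under 0.05 and the median of all genes (-0.066) as a blue line. The late neutrophil markers have the highest median (1.66), the primary granule genes 1.29, and of the 22 other clade B serpins 18 lie below 0, as do 58.3% of all genes.

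Markers of later granulocytes were also higher after G-CSF, as single genes short of the threshold with all arrays. All 24 measured markers of late granules and mature neutrophils had log2 fold changes above 0 (41.7% of all genes did), the median being 1.66 (1.54 without PBS replicate 3). At an unadjusted p under 0.05, 22 were higher (6.07% of all genes), and 0 passed. In G-CSF replicates 1 to 4 their mean level read 9.61, 9.78, 8.04 and 8.43, against 7.78, 7.0, 7.32 and 7.18 in PBS replicates 1 to 4. The groups were apart, and 3 of the 24 were dimmer than the median gene. Csf3r, the G-CSF receptor, had 1.29 ± 0.21 SE (limma adjusted p = 0.0585). Without PBS replicate 3 it passed, at 1.46 (limma adjusted p = 0.0125). Lactoferrin (Ltf), of the secondary granules, had 11.22, 11.31, 9.46 and 9.72 after G-CSF, against 8.76, 7.66, 7.83 and 8.14 after PBS. Between G-CSF replicates, the late marker mean spanned 1.74 on the log2 scale. The spans were 1.29 for Ctsg, 1.27 for Mpo, 1.13 for Ctsc, 1.07 for Serpinb6a and 0.87 for Elane. Those of Prtn3, Serpinb1a and Srgn were 0.50, 0.49 and 0.16. The late marker mean was highest in G-CSF replicate 2, where Ctsc and Serpinb6a were highest and Mpo, Elane, Prtn3, Ctsg and Srgn were lowest. It was nearly as high in G-CSF replicate 1, where Elane, Ctsg and Srgn were highest. It was lowest in G-CSF replicate 3, where Serpinb1a, Serpinb6a and Ctsc were lowest. The part of later granulocytes in the values of Serpinb1a and the enzymes was not tested.

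Granulocyte-monocyte progenitor markers had a median of 0.80, with 11 of 13 above 0 and 1 past the threshold, Csf2rb. Its near-identical relative Csf2rb2 had 1.58 ± 0.27 SE (limma adjusted p = 0.0669), and probes of the pair can share sequence. The mean level of the progenitor markers was 7.67 to 8.02 after G-CSF and 6.81 to 7.27 after PBS. Over all genes 41.7% were above 0 (46.9% without PBS replicate 3), and 6.07% were higher at an unadjusted p under 0.05. Without PBS replicate 3, 10 of 13 progenitor markers, 9 of 14 monocyte and macrophage markers and 4 of 9 mast cell and basophil markers were above 0. For monocytes and macrophages the median was 0.30 and ranged from 0.045 without PBS replicate 3 to 0.79 without PBS replicate 1, with 11 of 14 above 0, 0 past the threshold and 4 higher at an unadjusted p under 0.05, and means of 6.87 to 8.05 after G-CSF and 6.73 to 8.13 after PBS, where PBS replicate 1 was the highest. Mast cell and basophil markers had a median of -0.13 (-0.047 without PBS replicate 3), with 3 of 9 above 0, 0 past the threshold and 1 higher at an unadjusted p under 0.05, and means of 5.14 to 5.60 after G-CSF and 5.13 to 5.63 after PBS. Hdc, histidine decarboxylase, which granulocytes also express, had 1.43 ± 0.34 SE (limma adjusted p = 0.224). The part of these cells in the results above was not tested.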

How the data were processed

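Gene expression was measured on 1 MoGene 1.0 ST array for each of 4 G-CSF and 4 PBS samples, grouped by their titles. The deposited values are linear intensity values, 1 per probe set and array, and RMA is named in the submitters' processing notes. Neither its version nor its options are stated in the labels. Intensities ran from 2.15 to 16163, so log2 was taken, on the reading that RMA output had been put back on a linear scale. No detection calls or scan dates were available, and precision is limited by how many arrays there are.

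Of 35556 probe sets, 21789 had 1 symbol in the platform annotation, 1621 several and 12146 none. The brightest single-gene probe set was kept per gene (19938 genes). G-CSF was set against PBS in limma 3.58.1 under R 4.3.3 (lmFit, eBayes, 2-sided, Benjamini-Hochberg adjustment over all genes, threshold 0.05), tested on simulated data. The replicate numbers do not pair the samples by any label. The named genes were all 8 members, in each list those past the threshold and those with the lowest p up to 4, and for Serpinb1a, Mpo and Srgn the 3 genes of nearest profile. Exceptions are marked. The members and lists were chosen with earlier results of these data known. Alternatives covered variance moderation, a replicate block, array weights, dim genes, normalization, an offset of 16, probe set choice and each array left out.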

Additional observations from a re-analysis of the deposited data

Results flagged for a closer look

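Within groups of 4 arrays, an array was singled out where its gap to the nearest of the other 3 was a larger part of the range, on the log2 scale, than Dixon's 95% critical value. Chance singles out about 1 in 20 groups, and 13 of 192 groups were so marked, 8 of them by PBS replicate 3.

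Among the primary granule genes, Serpinb6a was marked in PBS replicate 3, with 5.81 against 7.93 to 8.09 on the other arrays of its group (gap 0.93 of the range). Without that array its log2 fold change was -0.51, against 0.039 with it. PBS replicate 3 was also low for Csf2rb, with 6.39 against 7.15 to 7.23 on the other arrays of its group (gap 0.905 of the range), for Rab32, with 5.95 against 7.55 to 7.74 on the other arrays of its group (gap 0.895 of the range), and for Jagn1, with 5.85 against 6.88 to 7.04 on the other arrays of its group (gap 0.868 of the range). The mean of the granule trafficking genes was low there too, with 6.91 against 7.40 to 7.47 on the other arrays of its group (gap 0.876 of the range). It was high for Treml1, with 8.28 against 6.60 to 6.82 on the other arrays of its group (gap 0.87 of the range), for Cd8a, with 6.26 against 5.47 to 5.55 on the other arrays of its group (gap 0.91 of the range), and for the mean of the other clade B serpins, with 3.99 against 3.51 to 3.55 on the other arrays of its group (gap 0.93 of the range).

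PBS replicate 1 was high for the mean of monocyte and macrophage markers, with 8.13 against 6.73 to 6.91 on the other arrays of its group (gap 0.869 of the range), for Chsy1, with 7.48 against 7.20 to 7.23 on the other arrays of its group (gap 0.871 of the range), and for Serpinb9d, with 3.05 against 2.76 to 2.80 on the other arrays of its group (gap 0.872 of the range). G-CSF replicate 2 was low for Slc4a1, with 6.04 against 6.65 to 6.68 on the other arrays of its group (gap 0.956 of the range), and for Cd8a, with 4.96 against 5.54 to 5.61 on the other arrays of its group (gap 0.898 of the range). PBS replicate 4, the lowest array for Mpo, Elane and Ctsg, was not marked for any of these genes.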

How the results depend on the processing

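With 4 arrays per group, 1 array decides several values, and dim genes have no detection call. Of 144 member values under 18 alternatives, 129 kept direction and side of the threshold. Serpinb1a did not pass after quantile normalization (2.26) or with all probe sets (2.25), and Prtn3 passed with array weights (1.21) and in the setting named combined, which is quantile normalization without PBS replicate 3 (1.10). Serpinb6a turned to -0.46 with array weights, -0.54 in the combined setting, -0.51 without PBS replicate 3, -0.074 without G-CSF replicate 1 and -0.097 without G-CSF replicate 2. Srgn turned to -0.13 after quantile normalization and -0.022 without PBS replicate 1. With 1 array left out, Serpinb1a was at 1.93 to 2.45, Prtn3 at 1.15 to 1.497, Ctsg at 1.16 to 1.92, Mpo at 0.63 to 1.54, Elane at 0.45 to 1.29, Ctsc at 0.90 to 1.88, Serpinb6a at -0.51 to 0.26 and Srgn at -0.022 to 0.16. The cause was not tested.

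Members called higher numbered 2 with array weights and in the combined setting, 0 after quantile normalization and with all probe sets, and 0 to 2 with 1 array left out. Genes called higher numbered 37 with array weights, 10 after quantile normalization, 0 with all probe sets (limma, with 1460 probe sets higher and 1283 lower at an unadjusted p under 0.05) and 3 to 30 with 1 array left out (10, 3, 30 and 7 without G-CSF replicates 1 to 4), against 19 with all arrays. Genes called lower numbered 3 with array weights, 1 in the combined setting and 0 to 2 with 1 array left out, against 0. Listed genes called higher outside the 8, 1 with all arrays, numbered 2 with trend and robust moderation, with array weights, after median centring and in the combined setting, 0 with all probe sets and 0 to 6 with 1 array left out.

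With the replicate number as a block, 23 genes and 5 listed genes were called higher and Serpinb1a had an adjusted p = 0.0198 (limma). Same-numbered samples correlated at -0.03 to 0.14 in their deviations from the group means, and 1 of 4 G-CSF samples correlated best with its own number. Of the other named genes, Slamf1 turned to -0.036 with array weights, -0.067 in the combined setting and -0.065 without PBS replicate 3 (-0.065 to 0.40 with 1 array left out). Itga2b turned to -0.0089 after quantile normalization, -0.038 in the combined setting and -0.0089 without PBS replicate 3 (-0.0089 to 0.21). Epor turned to 0.0071 without G-CSF replicate 4 (-0.41 to 0.0071). Serpinb1b turned to 0.033 in the combined setting. Cebpa turned to -0.018 with array weights, -0.014 after quantile normalization, -0.0082 in the combined setting, -0.091 without G-CSF replicate 1, -0.010 without G-CSF replicate 4, -0.053 without PBS replicate 1 and -0.024 without PBS replicate 3 (-0.091 to 0.11). All 78 inhibitor minus target values moved by less than 1 SD of the arrays. Leaving out 1 of 4 arrays cannot move such a mean by 1 SD, and median centring cancels within an array. Each member had 1 probe set, so taking the mean of a gene's probe sets changes nothing here. For those settings the count therefore shows no stability. With 1 array left out, Serpinb1a ran from 0.31 to 1.29 relative to Ctsg. It ran from 0.93 to 2.00 relative to Elane and from 0.72 to 1.02 relative to Prtn3. Of 324 list medians, 303 moved by less than 1 SD. Trend and robust moderation, the replicate block and the fit of all probe sets left every log2 fold change as it was. The medians could not move in those settings. Leaving out 1 of 4 arrays can hardly move a list by 1 SD of the arrays either. The 303 therefore do not test how far the medians depend on those settings or on single arrays.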

Other observations

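Of the markers of other lineages 0 passed (limma), and their counts above 0 are to be read against 41.7% of all genes, or 46.9% without PBS replicate 3. Megakaryocyte markers had a median log2 fold change of -0.28 (-0.43 to -0.18 with 1 array left out) with 2 of 7 above 0 and 1 lower at an unadjusted p under 0.05, and Ppbp, the platelet basic protein, had 6.35, 5.95, 6.16 and 6.40 in G-CSF replicates 1 to 4, against 8.60, 7.74, 6.57 and 6.95 in PBS replicates 1 to 4. Its groups did not overlap (-1.25 ± 0.37 SE, limma adjusted p = 0.347), whereas those of Pf4, platelet factor 4, did (-1.01 ± 0.72 SE). Erythroid markers had a median of -0.25 (-0.36 without PBS replicate 3 and -0.0092 without PBS replicate 1) with 2 of 8 above 0 and 0 at an unadjusted p under 0.05, where Alas2, the erythroid form of the first heme synthesis enzyme, had -0.47 ± 0.24 SE. B cell markers had a median of -0.30 (-0.48 to -0.18 with 1 array left out) with 1 of 8 above 0 and 2 lower at an unadjusted p under 0.05, and Igll1, of the pre-B cell receptor, had -0.47 ± 0.19 SE. T and NK cell markers had a median of -0.21 with 2 of 10 above 0 and 0 at an unadjusted p under 0.05, or -0.081 with 3 of 10 above 0 without PBS replicate 3. Nkg7 was the highest of them at 1.08 ± 0.50 SE, or 0.56 without PBS replicate 4. All genes together had a median of -0.066, or -0.017 without PBS replicate 3.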
